A study of Mus musculus with 7 samples.

Results

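The genes described here encode the mitotic kinases Aurora A (Aurka), Aurora B (Aurkb), Plk1 and Plk4. They also encode the partners of Aurora B in the chromosomal passenger complex (Incenp, Birc5 and Cdca8), and Tpx2, an activator of Aurora A. They were found by symbol in the deposited expression table and make up 8 of its 24341 genes. The 7 RNA-seq samples were B-cell precursors (BCP), which the labels give as sorted from spleen by flow cytometry in both groups, of Emu-Ret hemizygote mice on a BALB/c background. The leukemic group held 3 samples from older, moribund mice with overt disease, and the preleukemic group held 4 samples from young, healthy mice. Exact ages are not in the labels, and mice of both sexes were used. All mice of both groups carried the transgene, a Ret fusion gene placed under the immunoglobulin heavy chain enhancer Eμ and so directed to lymphoid cells, and the table holds no transgene-negative cells. The methods of the study give the sort gate of preleukemic BCP cells as B220int/CD43int/BP-1hi, and say of leukemic spleen cells used in culture that most were not enriched. The comparison asks which pathways changed between preleukemia and leukemia.

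Aurora and Polo-like kinases drive the mechanics of cell division. Aurora A matures centrosomes and, held active by Tpx2, builds the spindle. Plk4 starts the duplication of centrioles, and Plk1 acts from mitotic entry to cytokinesis. Aurora B sits with the scaffold protein Incenp, survivin (Birc5) and borealin (Cdca8) in the passenger complex, which corrects faulty chromosome attachments at centromeres and then moves to the midzone of the dividing cell. Transcripts of such genes are periodic and peak in G2 and mitosis, and a sequence called the cell cycle genes homology region (CHR), often near CCAAT boxes, is known for this timing in many of their promoters. Dividing B-cell precursors therefore express these genes, and resting B cells little.

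The promoter sequences are shown as a description, and any link between them and the levels across samples was not tested. RefSeq (GRCm38.p6) gave a promoter for 5 of the 8 genes (Aurka, Birc5, Cdca8, Plk1 and Plk4). Each line holds 100 bases ending at the base before the annotated start, 5′ to 3′ on the strand of the gene, and capitals mark CCAAT or its reverse complement ATTGG. The genomic positions are chr2:172370571-172370670 (minus strand) for Aurka, chr4:124936918-124937017 (minus strand) for Cdca8, chr7:122159335-122159434 (plus strand) for Plk1, chr11:117849137-117849236 (plus strand) for Birc5 and chr3:40799851-40799950 (plus strand) for Plk4.
Aurka: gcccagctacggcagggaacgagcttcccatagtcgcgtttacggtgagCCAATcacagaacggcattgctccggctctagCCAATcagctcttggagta
Cdca8: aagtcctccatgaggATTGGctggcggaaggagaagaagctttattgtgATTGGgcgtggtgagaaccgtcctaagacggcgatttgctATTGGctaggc
Plk1: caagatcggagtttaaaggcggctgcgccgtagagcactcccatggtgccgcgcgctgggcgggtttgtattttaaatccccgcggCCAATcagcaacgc
Birc5: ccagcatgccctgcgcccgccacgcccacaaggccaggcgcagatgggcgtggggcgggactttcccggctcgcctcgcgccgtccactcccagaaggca
Plk4: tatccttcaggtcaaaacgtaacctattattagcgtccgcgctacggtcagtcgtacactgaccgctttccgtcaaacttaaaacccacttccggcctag

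The CHR letters TTTGAA lay just after the annotated start in Aurka and Plk1. They began at bases 33 and 31, counting the start as base 1. The next lines show 30 bases around them, at chr2:172370521-172370550 for Aurka and chr7:122159453-122159482 for Plk1, with TTTGAA in capitals.
Aurka CHR: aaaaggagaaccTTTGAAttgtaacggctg
Plk1 CHR: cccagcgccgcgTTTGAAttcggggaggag

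Both motifs were searched on both strands in windows of 250 bases before and 50 bases from the start. Aurka held CCAAT at -51 and -19, Plk1 at -14, and Cdca8 held ATTGG at -85, -51 and -11 before its start. Birc5 and Plk4 held neither set of letters in their windows. Of the 32851 windows in the table, 17.9% held TTTGAA, 37.4% held CCAAT and 6.95% held both. Among 88 windows of 77 related cell division genes, whose lists are described further on, these shares were 34.1%, 60.2% and 25.0%. A match of letters is a description of the sequence and not evidence of a bound site.

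Values are FPKM, a level scaled to transcript length and to depth, as the authors computed them, and the depth implied by the steps between low values was 13.35 to 15.9 M fragments per sample. At that depth the lowest value of each gene rested on 458 fragments (Aurka, preleukemic replicate 2) to 2206 fragments (Birc5). This is a counting error of 4.67% to 2.13%, which covers counting alone. The longest transcript of each gene was taken as its length, and a shorter one would give fewer fragments. The B-cell precursor markers were expressed in every sample, with summed FPKM of 3513 to 5368 in leukemic and 6523 to 8177 in preleukemic samples, and 4 of 14 were called lower. Cd79a, which codes for a chain of the B-cell receptor complex, led them with 869 to 1194 FPKM in leukemic and 1259 to 1626 FPKM in preleukemic samples. Enpep, which encodes the BP-1 antigen of the sort gate, stood at 19.1, 102 and 77.2 FPKM in leukemic replicates 1 to 3 and at 134 to 210 FPKM in preleukemic samples. It was not among the 4 called (log2 fold change -1.70, SE 0.52, limma adjusted p = 0.0688). All 12 red cell precursor markers were called higher, and their summed FPKM was 5339, 24508 and 12017 in leukemic replicates 1 to 3, 2583 in preleukemic replicate 1 and 403 to 431 in the other preleukemic samples.

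The remaining lists marked other blood cells. Macrophage markers (5 of 8 tested called higher) summed to 40.2 to 202 FPKM in leukemic and 10.6 to 19.2 FPKM in preleukemic samples, neutrophil markers (3 of 8 called higher) to 1407 to 1744 and 148 to 860 FPKM, and platelet markers (4 of 4 called higher) to 12.8 to 51.2 and 0.338 to 2.90 FPKM. Plasma cell markers (1 of 3 called higher) summed to 128 to 204 and 66.0 to 72.8 FPKM, and T and NK cell markers (0 of 6 called with limma, 3 at an unadjusted p under 0.05) to 10.7 to 30.5 and 11.9 to 16.2 FPKM. The most expressed marker was Hbb-b1 for red cell precursors, C1qa for macrophages, S100a8 for neutrophils, Ppbp for platelets, Jchain for plasma cells and Nkg7 for T and NK cells. No marker was at the floor of the table in all 7 samples, and Pf4, Ppbp and Gp1bb of the platelet list were at it in some. In bulk samples, fewer cells of a type and less RNA per cell cannot be told apart.

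All 8 genes had a higher mean in leukemic than in preleukemic BCP cells, but the leukemic samples did not form a group of their own. Leukemic replicates 1 and 2 lay above every preleukemic sample in all 8 genes, whereas leukemic replicate 3 lay inside the preleukemic range in 7 of them. The exception was Birc5, the survivin gene. Among all genes tested, 7.45% had leukemic replicates 1 and 2 above every preleukemic sample and replicate 3 not. In a further 14.9%, all leukemic samples lay above every preleukemic sample. The median log2 fold change of the 8 genes was 0.52 (1.44-fold), against -0.02 for all 10541 genes tested, of which 47.9% were above 0. With limma on log2(FPKM + 1) and Benjamini-Hochberg adjustment over all genes tested, adjusted p was under 0.05 in 0 of the 8 genes, and unadjusted p was under 0.05 in 2 (Aurka and Birc5) and in 34.0% of all genes. Of all genes tested, 8.47% were called higher and 6.26% were called lower.

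**Figure D1:**
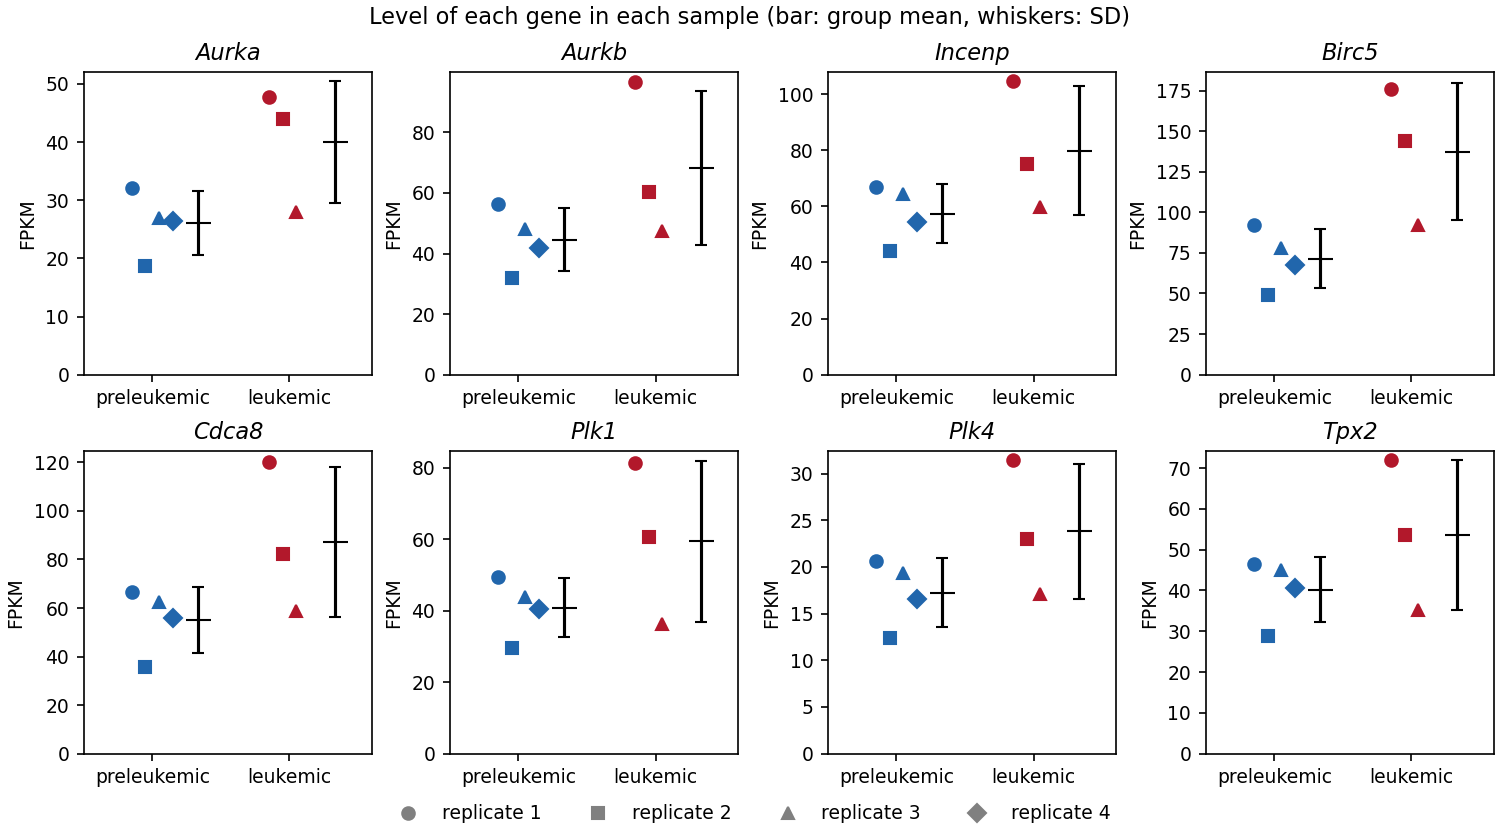
FPKM (y axis, from 0) of each of the 8 genes in the 4 preleukemic (blue) and 3 leukemic (red) samples, with the shape of the point for the replicate number and the group mean ± SD beside the points. Leukemic replicates 1 and 2 lie above all preleukemic points in every panel, and leukemic replicate 3 lies among them except in Birc5.

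Aurka (chromosome 2, 172356190 to 172370570, minus strand), the gene of the spindle pole kinase, measured 47.8, 44.0 and 28.0 FPKM in leukemic replicates 1 to 3. Preleukemic replicates 1 to 4 had 32.2, 18.7, 27.0 and 26.5 FPKM. Its first 2 leukemic values were close to each other and above all preleukemic values, and leukemic replicate 3 was 0.12 above the preleukemic mean on the log2 scale. The means were 39.9 ± 10.5 FPKM (SD, n = 3) and 26.1 ± 5.54 FPKM (SD, n = 4), a difference of 0.59 on the log2 scale (SE 0.23, 95% interval 0.05 to 1.12, adjusted p = 0.122 by limma). Tpx2 (chromosome 2, 152847964 to 152895321, plus strand), whose protein binds and activates Aurora A on spindle microtubules, had 72.0, 53.5 and 35.2 FPKM in leukemic and 46.4, 28.9, 45.0 and 40.5 FPKM in preleukemic replicates. Here leukemic replicate 3 was below 3 of the 4 preleukemic samples. The log2 fold change of Tpx2, 0.37, was the smallest of the 8 (SE 0.26, 95% interval -0.23 to 0.97, adjusted p = 0.34 by limma). The microRNA gene Mir5622 lies inside the Tpx2 locus on the same strand, over 60 bases.

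Birc5 (chromosome 11, 117849237 to 117855743, plus strand), the gene of survivin, which brings the passenger complex to centromeres, measured 176, 144 and 92.2 FPKM in leukemic replicates 1 to 3, and 92.0, 49.1, 77.8 and 67.3 FPKM in preleukemic replicates 1 to 4. It was the only 1 of the 8 genes whose leukemic values all lay above all preleukemic values, as in 14.9% of all genes tested. Leukemic replicate 3 exceeded preleukemic replicate 1 by 92.158 to 92.0445 FPKM, less than the counting error. The Birc5 means were 137 ± 42.3 FPKM (SD, n = 3) and 71.6 ± 18.1 FPKM (SD, n = 4). The log2 fold change, 0.92 (1.89-fold), was the largest of the 8, with a standard error of 0.27, a 95% interval of 0.29 to 1.55 and a limma adjusted p of 0.0608.

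Aurkb (chromosome 11, 69045643 to 69051662, plus strand), the kinase of the passenger complex, had 96.6, 60.3 and 47.5 FPKM in leukemic and 56.4, 31.8, 48.2 and 41.9 FPKM in preleukemic replicates. Leukemic replicate 1 stood well above the rest, and leukemic replicate 2 was close to preleukemic replicate 1. Its log2 fold change was 0.57 (SE 0.27, 95% interval -0.06 to 1.20, adjusted p = 0.183 by limma). Incenp (chromosome 19, 9872297 to 9899533, minus strand), the scaffold that binds Aurora B, had 105, 75.0 and 59.7 FPKM in leukemic and 67.0, 44.1, 64.2 and 54.3 FPKM in preleukemic replicates. Its leukemic replicate 3 lay between preleukemic replicates 3 and 4, as it did in Aurkb. On the log2 scale the groups differed by 0.45 (SE 0.22, 95% interval -0.05 to 0.95, adjusted p = 0.185 by limma).

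Cdca8 (chromosome 4, 124918465 to 124936917, minus strand), the gene of borealin, had 120, 82.2 and 58.9 FPKM in leukemic and 66.7, 35.7, 62.4 and 55.7 FPKM in preleukemic replicates. The order of the samples was that of Incenp and Aurkb. On the log2 scale the groups differed by 0.63 (SE 0.29, 95% interval -0.04 to 1.30, adjusted p = 0.167 by limma). In GENCODE M21 a longer Cdca8 transcript overlaps 9930104L06Rik on the other strand over 2264 bases, but the interval listed for Cdca8 shares 0 bases with it, and 9930104L06Rik had 4.69 to 6.53 FPKM. Unconfirmed gene models lie inside Incenp (AC132253.8, same strand, 1208 bases) and Plk1 (Gm44985, other strand, 1016 bases), and the sources do not say whether counting used the strand of the stranded libraries.

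Plk1 (chromosome 7, 122159437 to 122169875, plus strand), the Polo-like kinase of mitotic entry, had 81.4, 60.5 and 36.3 FPKM in leukemic and 49.3, 29.6, 43.8 and 40.6 FPKM in preleukemic replicates. Leukemic replicate 3 was below 3 preleukemic samples, as in Tpx2. Its log2 fold change was 0.48 (SE 0.28, 95% interval -0.17 to 1.14, adjusted p = 0.26 by limma). Plk4 (chromosome 3, 40799951 to 40816883, plus strand), the kinase of centriole duplication, had 31.4, 23.0 and 17.1 FPKM in leukemic and 20.7, 12.4, 19.4 and 16.6 FPKM in preleukemic replicates. Its leukemic replicate 3 differed from the preleukemic mean by 0.01 on the log2 scale. The groups differed by 0.43 on that scale (SE 0.23, 95% interval -0.12 to 0.98, adjusted p = 0.237 by limma).

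**Figure D2:**
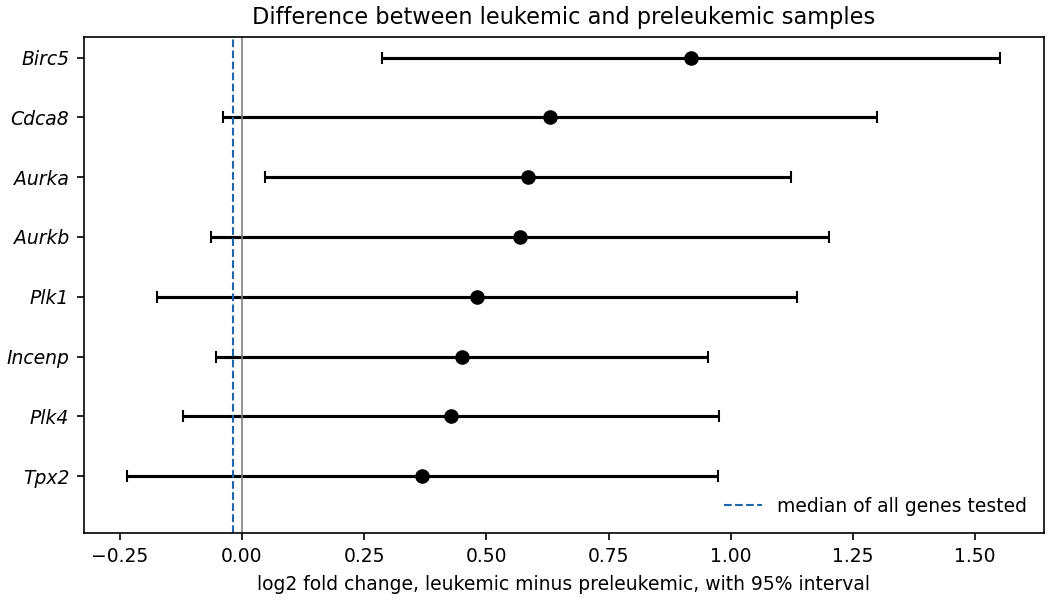
Log2 fold change, leukemic minus preleukemic, of log2(FPKM + 1) for each gene (point) with its 95% interval from limma (bar), beside the median of all genes tested (dashed line, -0.02). All 8 points lie to the right of 0, and the intervals of Aurka and Birc5 leave out 0 before adjustment for the number of genes.

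The count of 0 changed when leukemic replicate 3 was left out. This replicate was the lowest leukemic sample in all 8 genes, so leaving it out must raise each difference. Without it, Aurka (log2 fold change 0.82, limma adjusted p = 0.0474) and Birc5 (1.18, limma adjusted p = 0.0363) were called higher, 8 of the 8 genes had an unadjusted p under 0.05, and the median of the 8 genes was 0.79. In that fit 6.74% of all genes were called higher and 36.6% had an unadjusted p under 0.05. Without leukemic replicate 1 the median was 0.26 and 0 of the 8 were called. The direction did not depend on the scaling. When each sample was scaled to the same FPKM total, the median of all genes tested moved to -0.17 and the median of the 8 genes to 0.36, so that the distance between them was 0.53, against 0.54 as deposited, and the calls over all genes were 683 higher and 2236 lower in place of 893 higher and 660 lower.

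The 8 genes placed the samples in nearly 1 order. Leukemic replicate 1 was highest, leukemic replicate 2 next and preleukemic replicate 2 lowest in 8 of 8 genes, an order of these 3 samples that 512 of all genes tested (4.86%) shared. Preleukemic replicate 1 ranked 3 in 7 genes and 4 in Birc5. Over the 8 genes, the mean deviation from the preleukemic mean on the log2 scale was 1.01 ± 0.18 (SD over genes) in leukemic replicate 1, 0.58 ± 0.22 in replicate 2 and 0.07 ± 0.18 in replicate 3, which are 2.01-fold, 1.50-fold and 1.05-fold. The preleukemic replicates 1 to 4 stood at 0.30 ± 0.06, -0.45 ± 0.06, 0.16 ± 0.04 and -0.01 ± 0.05. In the preleukemic group the SD over mice of these means was 0.33, several times the SD over genes within a mouse.

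**Figure D3:**
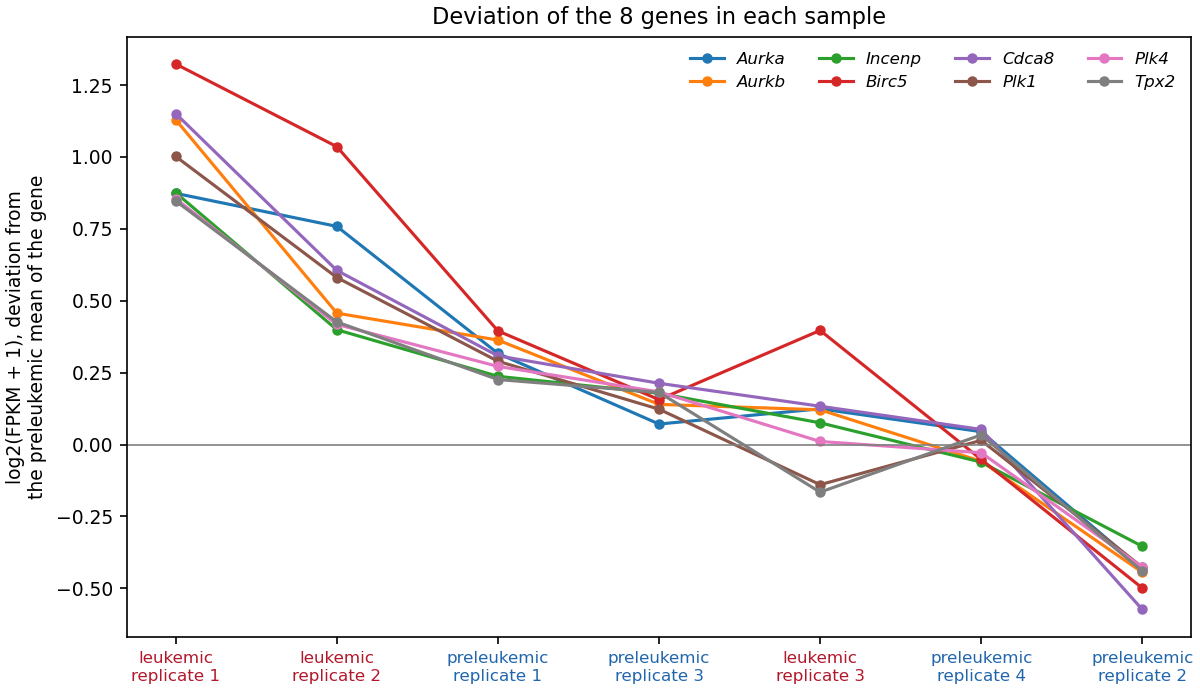
Deviation of log2(FPKM + 1) from the gene's preleukemic mean (y axis) in each of the 7 samples (x axis, placed by the mean over the genes), with 1 line for each gene; lines join the samples only as a guide. The lines run together from leukemic replicate 1 (0.85 to 1.32) down to preleukemic replicate 2 (-0.57 to -0.35), and Birc5 lies above the others in leukemic replicates 1 to 3.

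Within each group the levels differed between mice. The highest leukemic value was 1.71 times the lowest in Aurka and 2.24 times in Plk1, the smallest and the largest such ratio of the 8 genes. Among preleukemic samples the ratio ran from 1.52 in Incenp to 1.88 in Birc5. Pearson correlations between pairs of the 8 genes over the 7 samples ran from 0.901 (Birc5 with Tpx2) to 0.995 (Aurkb with Incenp) over 28 pairs, and the lowest within the 4 preleukemic samples alone was 0.942. The 7 points share their libraries and any difference in cell makeup, so these correlations are a description.

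The sample order of the red cell markers was not that of the 8 genes. The summed red cell markers were highest in leukemic replicate 2 and next in leukemic replicate 3, in which the 8 genes stood 0.07 from the preleukemic mean, and leukemic replicate 1, the highest for the 8 genes, had the lowest sum of the leukemic samples. Leukemic replicate 1 also had the lowest Enpep level and the lowest sum of B-cell precursor markers (3513 FPKM). Among the preleukemic samples, replicate 1 had both the highest red cell sum (2583 FPKM) and the highest mean deviation of the 8 genes (0.30). Over the 7 samples, the log2 sum of the red cell markers and the mean standardised level of the 8 genes had a Pearson correlation of 0.599, and the B-cell precursor sum one of -0.658, given as descriptions. The part of these cells in the levels of the 8 genes was not tested.

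The genes also kept nearly 1 order of levels in each sample. By mean FPKM over the 7 samples the order was Birc5 (99.8), Cdca8 (68.8), Incenp (67.0), Aurkb (54.7), Plk1 (48.8), Tpx2 (45.9), Aurka (32.0) and Plk4 (20.1). Birc5 exceeded Cdca8 in 7 of 7 samples, by 0.50 ± 0.18 on the log2 scale (SD, n = 7), Tpx2 exceeded Aurka by 0.52 ± 0.16 and Aurka exceeded Plk4 by 0.64 ± 0.14, also in 7 of 7. Incenp exceeded Aurkb in 7 of 7 samples (0.32 ± 0.11) and Aurkb exceeded Plk1 in 6 of 7 (0.16 ± 0.13). Neighbours that did not differ beyond their spread were Cdca8 and Incenp, with Cdca8 higher in 3 of 7 samples, and Plk1 and Tpx2, with a difference of 0.07 ± 0.08.

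Ratios between partner genes within a sample do not depend on how samples are scaled, apart from the 1 added to each value. The ratio of Birc5 to Aurkb was 0.86, 1.24 and 0.94 on the log2 scale in leukemic replicates 1 to 3 and 0.70, 0.61, 0.68 and 0.67 in preleukemic replicates 1 to 4. The groups did not overlap, and the 4 preleukemic values lay within a narrow range. The difference was 0.35 (1.27-fold), with an exact permutation p of 0.0571 (two-sided, n = 3 and 4). This two-sided p doubles the share of the 35 labelings at least as extreme in the same direction. Its smallest possible value is 0.0571, so the test as run cannot reach 0.05. Adjusted over the 6 ratios, the exact permutation p was 0.343. The other ratios overlapped between the groups. Tpx2 to Aurka was 0.39 ± 0.17 in leukemic and 0.61 ± 0.08 in preleukemic samples (difference -0.22, exact permutation p = 0.114, adjusted 0.343), and Incenp to Aurkb differed by -0.12 (exact permutation p = 0.229, adjusted 0.457). Aurkb to Aurka (-0.02), Cdca8 to Aurkb (0.06) and Plk4 to Plk1 (-0.05) had exact permutation p of 0.914, 0.514 and 0.629.

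**Figure D4:**
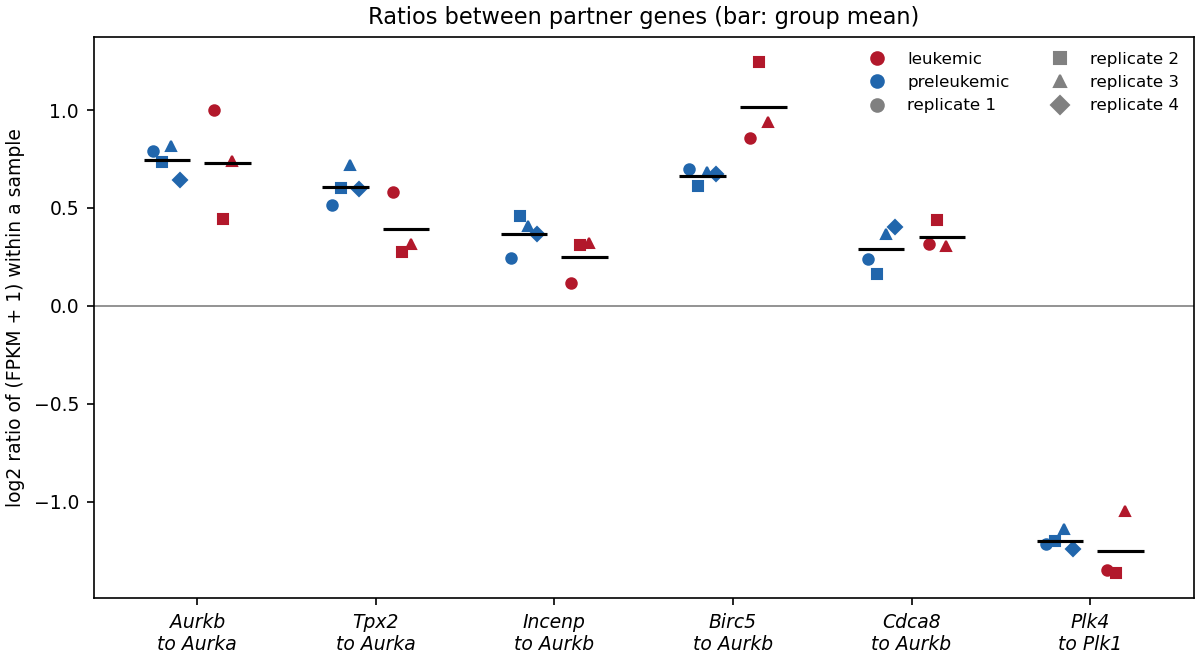
Log2 ratio of (FPKM + 1) of each gene to its partner within a sample (y axis) for 6 pairs, with preleukemic samples in blue, leukemic samples in red and a bar for each group mean. Birc5 to Aurkb is the only pair whose groups do not overlap (0.86 to 1.24 against 0.61 to 0.70).

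Genes that work with the 8 were described in 8 lists of 96 different genes, of which 94 could be tested. Of these, 8 (8.51%) were called higher, close to the 8.47% of all genes, and 1 (1.06%) was called lower, against 6.26%. Above 0 were 75 of the 94, with a median log2 fold change of 0.36 against -0.02 for all genes tested. The count of 9 calls changed as single samples were left out. It was 5 without leukemic replicate 1 or 2, 2 without preleukemic replicate 2 or 3 and 1 without preleukemic replicate 4. Over all genes, higher calls fell from 893 in each of these fits, and lower calls fell from 660 in all but the fit without leukemic replicate 2. Higher and lower calls were 818 and 507 without leukemic replicate 1 and 801 and 705 without leukemic replicate 2. Without preleukemic replicates 2, 3 and 4 in turn they were 301 and 156, 202 and 71, and 74 and 32. In 15 of the 94 genes (16.0%) all leukemic values lay above all preleukemic values, against 14.9% of all genes, and these included all 8 genes called higher. Calls and separation rest on the same values, so that overlap is not a separate result. In 32 (34.0%) leukemic replicates 1 and 2 lay above and replicate 3 did not, a pattern named after the values were seen, found in 7 of the 8 mitotic kinase and passenger genes and in 7.45% of all genes tested.

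**Figure D5:**
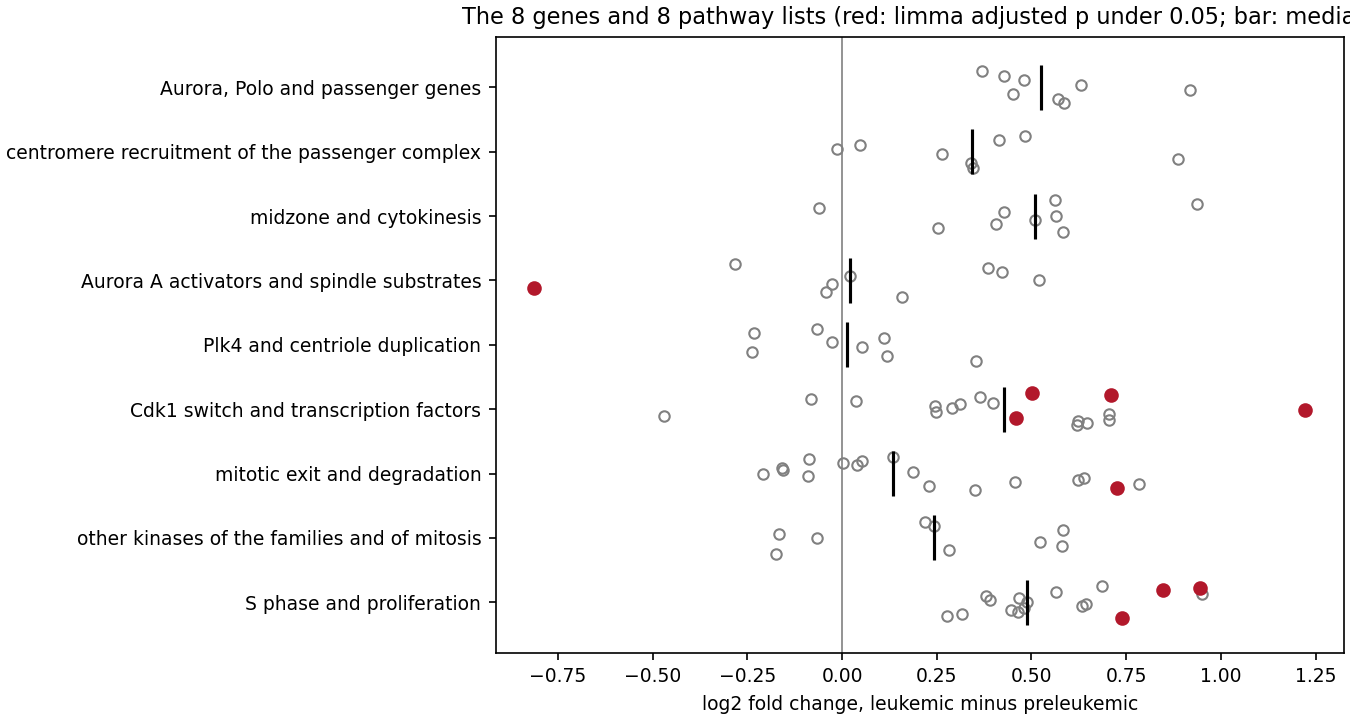
Log2 fold change, leukemic minus preleukemic, of the 8 genes (top row) and of each gene of the 8 lists, with the list's median as a bar and genes with a limma adjusted p under 0.05 in red. The midzone list and the S phase list lie mostly right of 0 (medians 0.51 and 0.49), and the centriole list lies around 0 (median 0.01).

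Neither of the lists nearest to Aurora B held a call. For the genes that recruit the passenger complex to centromeres, 0 of 8 were called with limma (1 at an unadjusted p under 0.05), 7 were above 0 and the median log2 fold change was 0.34. The heterochromatin protein genes Cbx1 (92.5 ± 16.2 FPKM in leukemic and 92.5 ± 5.74 in preleukemic samples), Cbx3 (38.7 ± 11.2 and 36.5 ± 2.27) and Cbx5 (34.3 ± 9.07 and 25.3 ± 4.84) had the highest levels of the list. Their log2 fold changes were -0.01, 0.05 and 0.41. For genes of cytokinesis and of the midzone, where the complex moves in anaphase, 0 of 9 were called with limma (3 at an unadjusted p under 0.05), 8 were above 0 and the median was 0.51. Racgap1 and Kif23, which together form the centralspindlin complex, had 86.8 ± 20.0 and 71.8 ± 7.33 FPKM (log2 fold change 0.25) and 47.7 ± 20.7 and 29.9 ± 6.08 FPKM (0.58). Prc1, the microtubule bundler of the midzone, had 53.3 ± 14.5 and 35.3 ± 6.84 FPKM (log2 fold change 0.57, limma adjusted p = 0.127).

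Among activators and spindle substrates of Aurora A, 1 of 9 genes was called and the median log2 fold change was 0.02. The gene called was Nedd9, a scaffold of cell adhesion that also activates Aurora A. It fell from 268 ± 17.5 FPKM (SD, n = 4) to 152 ± 7.10 FPKM (SD, n = 3), which is -0.81 on the log2 scale (SE 0.08, adjusted p = 0.00577 by limma), opposite in direction to Aurka. Numa1, which anchors microtubules at spindle poles, had 47.1 ± 3.75 and 57.3 ± 1.51 FPKM (log2 fold change -0.28, limma adjusted p = 0.0527), and the spindle motor gene Kif11 had 66.1 ± 28.8 and 48.2 ± 9.77 FPKM (0.38, 0.379). Of the genes that work with Plk4 in centriole duplication, 0 of 8 were called with limma (1 at an unadjusted p under 0.05), 4 were above 0 and the median was 0.01. The centrosomal scaffold gene Cep192, with 15.6 ± 2.46 and 15.8 ± 0.777 FPKM, and Cep63, with 20.5 ± 4.24 and 18.7 ± 1.83 FPKM, differed by -0.03 and 0.11 on the log2 scale. Fbxw5, of a ubiquitin ligase, differed by -0.23 (limma adjusted p = 0.137).

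The genes of the Cdk1 switch and of its transcription factors held 4 calls, all higher, among 18 tested, with 16 above 0 and a median log2 fold change of 0.43. Pkmyt1, the gene of a kinase that holds Cdk1 inactive, had 36.5, 24.1 and 25.6 FPKM in leukemic and 14.6, 9.06, 14.9 and 8.94 FPKM in preleukemic replicates. All leukemic samples, replicate 3 included, lay above all preleukemic samples, and its log2 fold change was 1.22 (SE 0.23, adjusted p = 0.0191 by limma). E2f1, a transcription factor gene of S phase entry, rose from 9.67 ± 2.10 to 16.4 ± 3.05 FPKM (log2 fold change 0.71, limma adjusted p = 0.0411). The other calls of the list were E2f4 (0.50, limma adjusted p = 0.0164) and the phosphatase gene Cdc25a (0.46, limma adjusted p = 0.0304), which were named after their values were seen. The cyclin genes Ccna2 (134 ± 44.4 and 84.2 ± 21.3 FPKM) and Ccnb2 (140 ± 73.0 and 79.8 ± 20.2 FPKM) had log2 fold changes of 0.65 and 0.70 that did not pass (limma adjusted p = 0.156 and 0.228), and Cdc25b, a phosphatase gene that starts mitosis, had 96.8 ± 59.8 and 120 ± 22.4 FPKM.

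For mitotic exit and protein degradation, 1 of 17 genes was called and the median log2 fold change was 0.14. Fzr1, the gene of the activator that directs the anaphase-promoting complex to Aurora A and Plk1 at the end of mitosis, rose from 37.0 ± 5.45 to 62.3 ± 14.5 FPKM (log2 fold change 0.73, limma adjusted p = 0.0356). Ube2c, of the enzyme that loads ubiquitin for this complex, had 193 ± 63.8 and 110 ± 27.5 FPKM (0.78, limma adjusted p = 0.104), the securin gene Pttg1 had 100 ± 23.7 and 65.6 ± 17.9 FPKM (0.62, 0.147) and the subunit gene Anapc5 had 195 ± 29.4 and 170 ± 13.4 FPKM (0.19, 0.292). Of the other kinases of these families and of mitosis, 0 of 9 tested were called with limma (0 at an unadjusted p under 0.05) and the median was 0.24. The most expressed were Pbk, with 59.7 ± 26.6 and 49.6 ± 13.5 FPKM, Nek9, with 29.3 ± 5.52 and 32.6 ± 1.89 FPKM, and Nek7, with 25.1 ± 2.76 and 26.2 ± 1.15 FPKM.

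The S phase and proliferation list had 17 of 17 genes above 0, with 3 called higher and a median log2 fold change of 0.49. Cdt1 and Cdc6, which license replication origins, rose from 23.6 ± 6.06 to 46.8 ± 14.2 FPKM (log2 fold change 0.95, limma adjusted p = 0.0412) and from 9.51 ± 2.71 to 17.6 ± 2.78 FPKM (0.85, limma adjusted p = 0.0374). Mki67, the gene of the proliferation marker Ki-67, was the remaining call (0.74, limma adjusted p = 0.0316), named after its values were seen. It had 162, 165 and 132 FPKM in leukemic and 103, 68.1, 108 and 89.1 FPKM in preleukemic replicates, so that leukemic replicate 3 lay above all preleukemic samples in Mki67 but not in 7 of the 8 mitotic kinase and passenger genes. The list itself was mixed. Leukemic replicate 3 also lay above all preleukemic samples in Cdt1, Cdc6, Mcm6, Mcm7, Ccne1 and Gmnn. It lay within the preleukemic range in Pcna, Top2a, Rrm1, Rrm2, Tyms, Ccne2, Mcm2, Mcm3, Mcm4 and Mcm5. The most expressed of the list, Pcna (384 ± 67.7 and 311 ± 64.6 FPKM), Top2a (191 ± 72.7 and 153 ± 28.8 FPKM) and Rrm2 (172 ± 43.5 and 125 ± 33.3 FPKM), did not pass.

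Likeness of other genes to the 8 was the Pearson correlation of log2(FPKM + 1) with the mean standardised level of the 8 genes, over 8769 other genes with a mean of at least 5 FPKM, whose median correlation was -0.0242. The 10 highest were Ccna2 (0.997), Stra13 (0.997), Cenpe (0.997), H2afz (0.996), Kif22 (0.996), Dbf4 (0.994), Nusap1 (0.994), Kif18b (0.994), Ect2 (0.994) and Cdca3 (0.993), of which 2 (Ccna2 and Ect2) stand in the 8 lists. Of these 10, 0 were called with limma and 2 had an unadjusted p under 0.05, with log2 fold changes between 0.32 for Dbf4 and 0.66 for Cdca3. Each of the 8 genes correlated with the mean of the other 7 at 0.959 (Birc5) to 0.994 (Plk4). A correlation of at least 0.9 was reached by 448 of the other genes (5.11%) and by 49 of the 89 list genes for which it was computed.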

How the data were processed

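RNA was isolated from sorted BCP cells and sequenced by the authors from stranded mRNA libraries. The authors deposited 1 FPKM value per gene and sample. The processing notes of the submitters name STAR 2.5.0b, bedtools 2.17.0, Cufflinks 2.2.1, Bowtie, DESeq2 and mm10, without their roles, and the annotation is not given in the sources used here. No value is below 0.01.

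The authors tested counts with DESeq2. As FPKM is not a count, the filter of that test (sum of at least 10, here over FPKM) and threshold (0.05) were kept and log2(FPKM + 1) was tested with limma 3.58.1 in R 4.3.3 (intensity trend, no covariates, Benjamini-Hochberg adjustment over 10541 genes). A gene called had an adjusted p under 0.05. Adding 1 understates the change of low genes. Each sample came from a separate mouse as far as the study's design tells. Ratios were compared by exact permutation in Python 3.11.15 with scipy 1.17.1.

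Depth was read from 6796 genes with a single transcript of over 1500 bases and an assumed fragment of 200 bases; 76.2% to 79.5% of their low values were whole within 0.1 fragments, so counts were not rebuilt. Listed starts are counted from 0 (of 23280 genes, 7315 lay 1 base below the GENCODE M21 start and 707 on it), and 1 was added. For Cdca8, the window after the start is not reported here. The members, lists and tests were chosen with earlier results of these data known. Named genes are the 8 members, in each list the 3 with the highest mean FPKM and at most 2 called genes with the largest change, the 10 genes most like the members and the top marker of each cell type. Alternatives were the pseudocount, filters, scalings, the trend, the replicate block and each sample left out.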

Additional observations from a re-analysis of the deposited data

How the results depend on the processing

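Over 16 alternatives the log2 fold change of each of the 8 genes was above 0 (128 of 128 values), with ranges from 0.13 to 0.64 in Tpx2 and from 0.72 to 1.18 in Birc5. Only 2 of the 128 passed, Aurka (0.82, limma adjusted p = 0.0474) and Birc5 (1.18, limma adjusted p = 0.0363) without leukemic replicate 3, and adjusted p over the alternatives ran from 0.0474 to 0.268 in Aurka and from 0.0363 to 0.169 in Birc5. The number of the 8 genes called was 0 to 2 with each sample left out in turn. The number of list genes called, 9 as reported, was 1 to 12 with each sample left out in turn and 0 with the replicate number as a block, a fit in which 0 of the 8 genes and 0 of all genes tested were called and the median of the 8 genes was 0.52. In that fit 1 of the 8 genes, 22 list genes and 2429 of all genes had an unadjusted p under 0.05. The numbers do not pair the samples: deviations of same-numbered samples from their group means correlated at 0.03, 0.05 and -0.09, and 1 of the 3 leukemic samples correlated best with the preleukemic sample of its own number. The calls over all genes, 893 higher and 660 lower, were 754 and 907 with quantile normalization, 683 and 2236 with the same FPKM total, 965 and 542 with median ratio scaling and 1114 and 597 without a filter. They were 616 and 319, 301 and 156, 202 and 71, and 74 and 32 without preleukemic replicates 1 to 4 in turn.

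Of 54 alternative values of the 6 ratios, 4 changed sign, all of ratios whose difference was near 0; the cause was not tested. Aurkb to Aurka (-0.02) was 0.0092 at a pseudocount of 5 and -0.15 to 0.13 with each sample left out in turn, being 0.13 without leukemic replicate 2 and 0.0063 without preleukemic replicate 3. Plk4 to Plk1 (-0.05) was -0.15 to 0.0017, the latter without leukemic replicate 2. Birc5 to Aurkb stayed between 0.23 and 0.43. With 3 samples against 4 and leukemic values up to 2.24 times apart, the 95% intervals of 6 of the 8 genes hold 0 and all 8 reach a log2 fold change of 0.95 or more, so a p that misses the threshold does not show equal levels. Depth limits these genes little, at 458 fragments or more if the longest transcript of each gene is taken as its length.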

Other observations

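The other members of the Aurora and Polo-like kinase families, which were named outside the rule for genes, stood far below the 8 genes. Aurkc, the Aurora kinase of germ cells, had 0.01 to 0.230 FPKM and Plk5 had 0.01 to 0.0717 FPKM over the 7 samples, and neither passed the filter on low values. Plk3 had 1.96 to 4.12 FPKM, a log2 fold change of 0.28 (limma adjusted p = 0.304). Plk2, a stress-induced family member, measured 0.552, 1.41 and 4.28 FPKM in leukemic replicates 1 to 3, against 1.04, 3.74, 2.47 and 1.58 FPKM in preleukemic replicates 1 to 4 (log2 fold change -0.17, limma adjusted p = 0.813). Leukemic replicate 1, the highest sample for each of the 8 genes, was the lowest for Plk2.

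The 32 list genes for which leukemic replicates 1 and 2, but not replicate 3, lay above all preleukemic samples included Cdk1, Ccnb1, Ccnb2, Ccna2, Cdc20, Ube2c, Pttg1, Kif23, Prc1 and Rrm2. The S phase genes Mcm2, Mcm5 and Ccne2 were also among the 32. In the same leukemic replicate 3, Pkmyt1, E2f1, E2f4, Cdc25a, Fzr1, Cdt1, Cdc6 and Mki67 lay above all preleukemic samples. They are the list genes called higher, out of 15 list genes whose leukemic values all lay above all preleukemic values. The 15 also held Sgol1, Anln and Espl1, so the sets do not divide by stage of the cell cycle. These genes were picked out after their values were seen, and the difference between the sets was not tested.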
